A study of Mus musculus with 26 samples.

Results

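The genes described here are 40 genes of glycolysis and of the response to low oxygen, chosen as a fixed list of symbols: glucose carriers, enzymes from hexokinase to lactate dehydrogenase, lactate carriers, subunits of the hypoxia-inducible factor (HIF), its oxygen sensors and its targets. Of these, 37 were found under their symbol among the 19505 genes with a symbol on the array, each with 1 probe set. Eno1, Gpi1 and Ero1l were not found under those symbols and are left out, and the gene of Ero1l is listed as Ero1a and appears among the other hypoxia genes below. The rule for members uses symbols and no measured value, but the list was drawn up with earlier results of these data known.

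Gene expression was measured in 26 subcutaneous Panc02 tumors, which grow from 1 murine pancreatic ductal adenocarcinoma cell line, to compare mice given an antibody against the T cell receptor PD1 (anti-PD1), the leucine metabolite β-hydroxy-β-methylbutyrate (HMB) in the diet, both, or neither. There were 7 tumors in the anti-PD1 + HMB group, 6 in the anti-PD1 group, 7 in the HMB group and 6 in the control group, and the RNA of each homogenized tumor was hybridized to 1 Clariom S array. A design note of the series gives other sizes (7 control, 7 anti-PD1, 7 HMB and 6 for both), and the groups used here are those of the sample titles. All mice were male C57BL/6, 6 to 8 weeks old on arrival, fed the purified diet AIN-93G. HMB was added to that diet from 1 week ahead of the injection, anti-PD1 was given at 200 µg every 3 days once tumors had formed, and mice without anti-PD1 received an isotype antibody. The tumors are transplants under the skin and not in the pancreas, and the p-values below measure the spread between tumors of single arrays.

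The values are the deposited log-scale values, 1 per probe set and tumor, and base 2 was assumed because the base is not given. Array medians lay between 6.97 and 7.11, and the 95th percentile of the 5222 negative-control probe sets lay between 10.9 and 11.3, which is called background below. Of the members, 16 were above background in all 26 tumors, 13 in none and 8 in some. The 13 (Slc2a3, Hk2, Pfkfb4, Eno2, Ldhb, Slc16a3, Vhl, Egln3, Car12, Adm, Ankrd37, P4ha2 and Higd1a) are read as low signals. Most genes on the array also fell below this cut, as between 3772 and 4489 genes per tumor were above it. The median of the negative controls lay between 6.96 and 7.26. Hk2, Pfkfb4, Slc16a3, Vhl, Ankrd37, P4ha2 and Higd1a averaged above that range, and the others of the 13 did not. Of markers of the cell line's tissue, Krt8, Krt18 and Sox9 were above background in 26 of 26 tumors, Krt19 and Epcam in 1 and Pdx1 and Ptf1a in 0. Several tumors stood apart by markers of other cells, with scores given as the mean log2 deviation of a marker list from its mean over all tumors. Anti-PD1 + HMB tumor 7 had a B cell score of 7.81 and an adipocyte score of 6.07, HMB tumor 2 a B cell score of 3.24, HMB tumor 5 and anti-PD1 + HMB tumors 4 and 6 skeletal muscle scores of 6.55, 5.79 and 4.43, and anti-PD1 + HMB tumor 3 and control tumor 4 fibroblast scores of -2.98 and -3.20.

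Glycolysis splits glucose into pyruvate, and tumor cells often run it fast and export the resulting lactate even where oxygen is present. Where oxygen is scarce, the prolyl hydroxylases that mark HIF subunits for destruction by the VHL protein slow down, HIF accumulates, and it binds a short DNA motif near genes for glucose uptake, glycolysis, pH control, vessel growth and mitophagy. Pancreatic tumors are known for poor perfusion and low oxygen, and the HIF subunits themselves are regulated mainly as proteins, so their mRNA need not follow HIF activity.

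No member differed between treatment groups after adjustment. Under limma with Benjamini-Hochberg adjustment over 19505 genes, 0 of the 37 members and 0 of all genes had an adjusted p under 0.05 in any of 8 comparisons or in the F test over the 4 groups (percent called 0 throughout). At an unadjusted p under 0.05, the F test called 2 of 37 members, Aldoc and P4ha2, against 7.7% of all genes. In RNA of a whole tumor, fewer cells of a type and less RNA per cell cannot be told apart. The 3 comparisons with control share the 6 control tumors, so their values stand side by side and are not independent of each other.

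**Figure D1:**
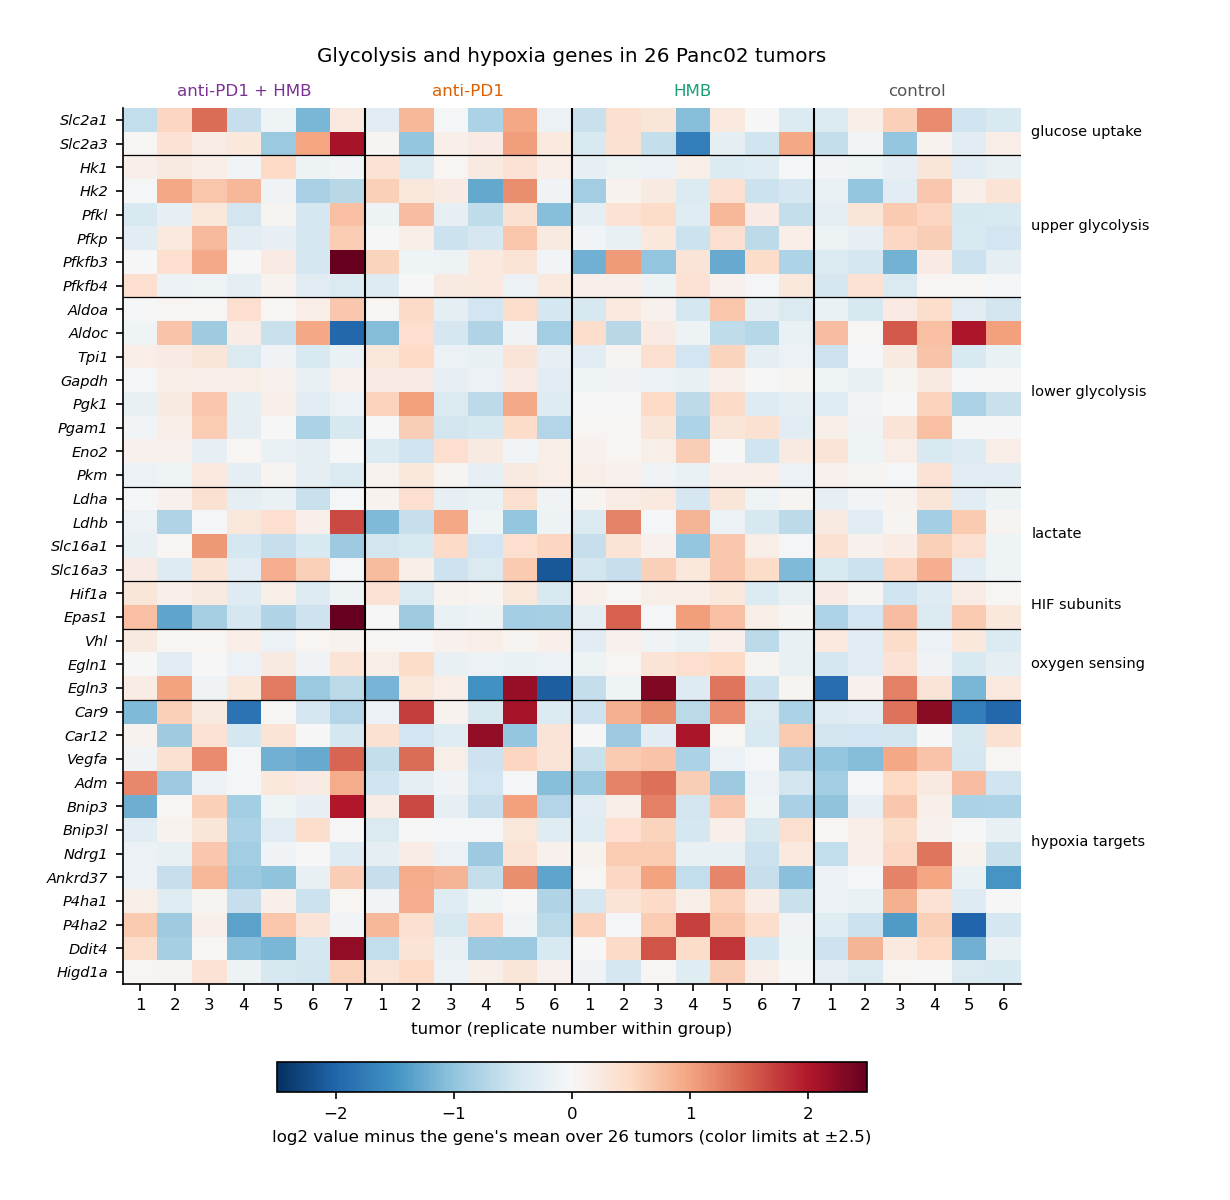
Heat map of the 37 members (rows, by role) in 26 tumors (columns, by group), colored by the log2 value minus the gene's mean over all tumors. High and low tumors stand side by side within each group, with Car9, Slc2a1 and Pgk1 all above their means in anti-PD1 tumors 2 and 5 and control tumor 4.

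Against control, the members as a whole lay close to 0. The median log2 difference of the 37 members was 0.06 for anti-PD1 + HMB minus control, 0.06 for anti-PD1 minus control and 0.03 for HMB minus control, against -0.02, -0.01 and -0.01 over all genes. The difference was above 0 for 20 of 37 members in anti-PD1 + HMB (46.9% of all genes), 23 in anti-PD1 (49.2%) and 23 in HMB (47.5%). For 0 of 37 members did the tumors of 2 groups fail to overlap, as they did for 0.2% of all genes between anti-PD1 + HMB and control, 0.41% between anti-PD1 and control and 0.179% between HMB and control. At an unadjusted limma p under 0.05, anti-PD1 + HMB had 1 member higher and 1 lower than control (3.42% and 4.71% of all genes), anti-PD1 1 and 1 (2.41% and 3.59%) and HMB 2 and 1 (3.14% and 3.79%). These shares, between 2.7% and 5.41% of the members, were near those of all genes. The 95% interval of the difference lay within a log2 value of 1 either way for 26 of 37 members in anti-PD1 + HMB (70.3%), 22 in anti-PD1 (59.5%) and 28 in HMB (75.7%). These shares were below those of all genes (83.4%, 83.4% and 84.2%), so a 2-fold change lay inside the interval more often for the members than for genes in general.

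**Figure D2:**
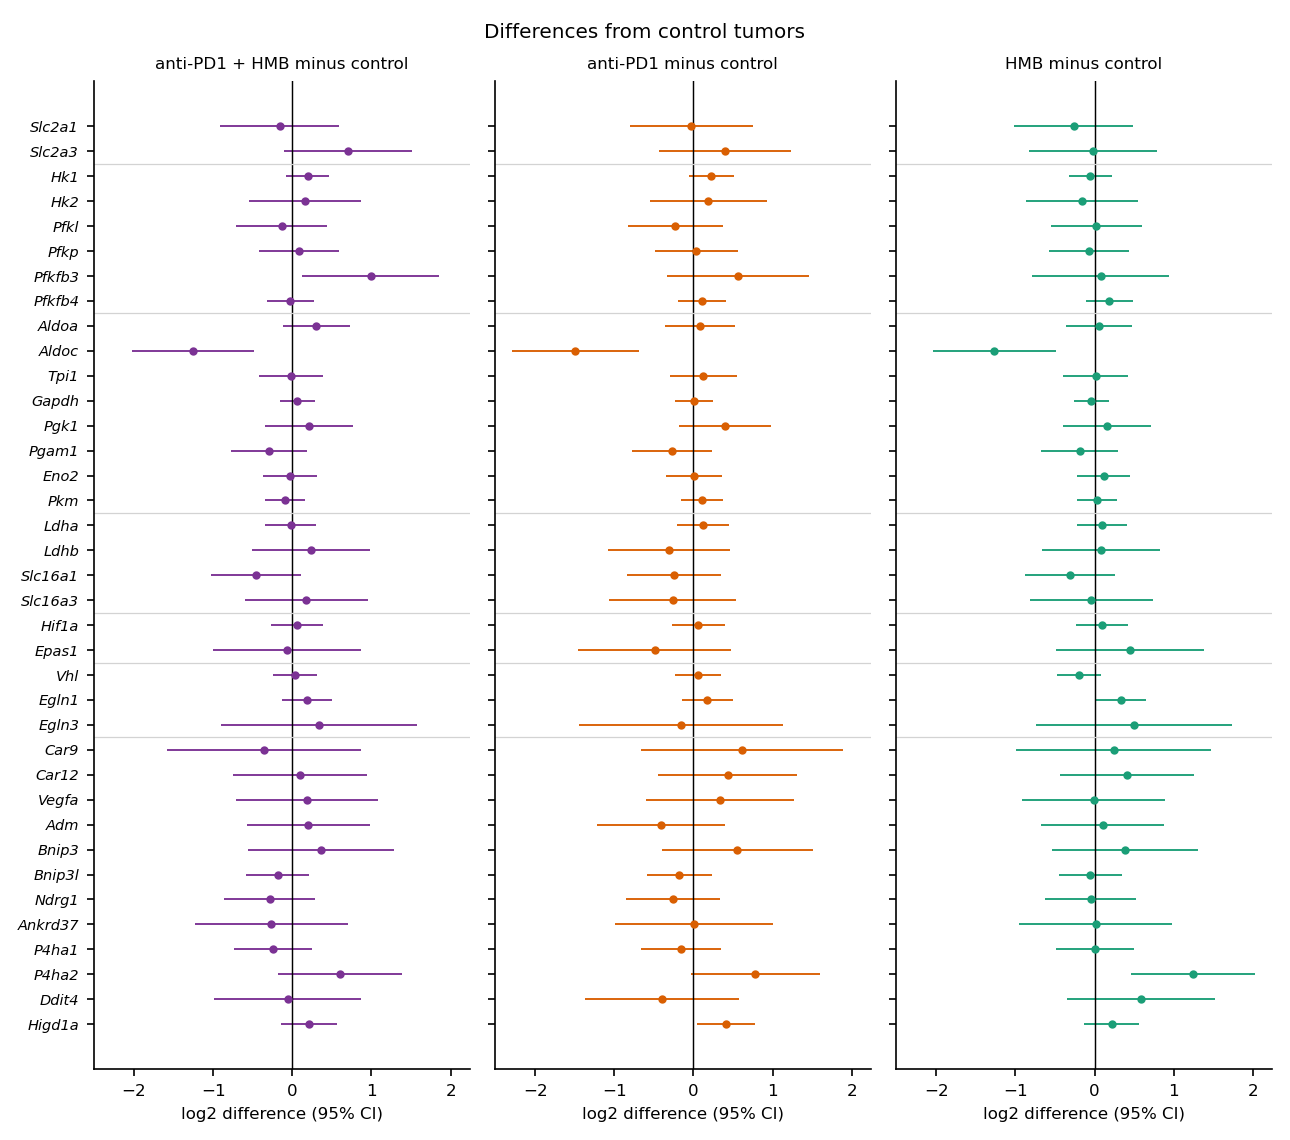
Log2 differences of the 37 members (rows, by role) between anti-PD1 + HMB, anti-PD1 or HMB and control, as points with 95% intervals from the limma fit of 26 tumors. Aldoc stands left of 0 in all 3 panels, which share the control tumors, P4ha2 stands right of 0 in the HMB panel, and the widest intervals belong to Car9 and Egln3.

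Among the glucose carriers, Slc2a1, which encodes the widespread carrier GLUT1, was above background in every tumor. Its log2 values had a lowest, median and highest of 12.01, 13.06 and 14.55 in anti-PD1 + HMB tumors, 12.37, 13.06 and 14.13 in anti-PD1 tumors, 12.09, 13.16 and 13.57 in HMB tumors, and 12.67, 13.08 and 14.34 in control tumors. The 4 groups overlapped almost fully, and the log2 difference from control was -0.16 for anti-PD1 + HMB (95% interval -0.91 to 0.59), -0.03 for anti-PD1 (-0.81 to 0.75) and -0.26 for HMB (-1.01 to 0.49). Slc2a3, the carrier GLUT3, was below background in every tumor, and its log2 difference of 0.70 between anti-PD1 + HMB and control did not pass (SE 0.393, adjusted p = 0.651). That difference was 0.42 without anti-PD1 + HMB tumor 7.

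In upper glycolysis, Hk1 and Hk2 encode hexokinases, which trap glucose in the cell, Pfkl and Pfkp encode subunits of phosphofructokinase, and Pfkfb3 and Pfkfb4 make its allosteric activator. Pfkfb3 had log2 values of 10.05 at lowest, 10.68 at the median and 13.41 at highest in anti-PD1 + HMB tumors, against 9.29, 10.10 and 10.69 in control tumors. Pfkfb3 was above background in 2 of 7 anti-PD1 + HMB tumors and 0 of 6 control tumors. The groups overlapped, 6 of 7 anti-PD1 + HMB tumors lay above the control mean, and the highest value belonged to anti-PD1 + HMB tumor 7. The log2 difference was 0.99 (SE 0.421, unadjusted p = 0.0262, adjusted p = 0.579, limma; exact permutation p = 0.0245, two-sided), and it was 0.60 without anti-PD1 + HMB tumor 7. Across the 26 tumors Pfkfb3 moved with the B cell score (r = 0.79, permutation p = 7e-05, adjusted p = 0.00691 over 592 relations; rho = 0.55, p = 0.00395, adjusted p = 0.170), and r was 0.40 without the 2 tumors farthest from the median score, so the relation rests on those tumors. The part of B cells in the Pfkfb3 value was not tested.

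Hk1 was above background in every tumor, with lowest, median and highest log2 values of 12.27, 12.52 and 12.88 in anti-PD1 + HMB tumors, 12.06, 12.59 and 12.75 in anti-PD1 tumors, 12.05, 12.24 and 12.54 in HMB tumors, and 12.11, 12.25 and 12.69 in control tumors. The anti-PD1-treated tumors averaged 0.24 higher than the others on the log2 scale (SE 0.0934, unadjusted p = 0.0167, adjusted p = 0.409, limma), with all 4 groups overlapping. At an unadjusted p under 0.05, that comparison of 13 tumors with 13 called 2 members higher (Hk1 and Pfkfb3) and 1 lower (Aldoc), against 4.49% and 4.49% of all genes, and 20 of 37 differences were above 0 (47.9% of all genes). Hk2, Pfkl, Pfkp and Pfkfb4 had differences from control between -0.23 and 0.19 in the 3 comparisons.

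In lower glycolysis, Aldoc had the lowest unadjusted p of any member in each comparison with control. It encodes aldolase C, the brain-type form of the enzyme that splits the 6-carbon sugar. Its log2 values had a lowest, median and highest of 10.12, 11.96 and 13.04 in anti-PD1 + HMB tumors, 10.99, 11.49 and 12.50 in anti-PD1 tumors, 11.36, 11.92 and 12.51 in HMB tumors, and 12.11, 12.97 and 14.09 in control tumors. All 7 anti-PD1 + HMB tumors, all 6 anti-PD1 tumors and all 7 HMB tumors lay below the control mean of 13.10, and each group overlapped the control group. The log2 difference from control was -1.26 for anti-PD1 + HMB (SE 0.375, unadjusted p = 0.00253, adjusted p = 0.533), -1.49 for anti-PD1 (SE 0.390, unadjusted p = 0.000752, adjusted p = 0.519) and -1.27 for HMB (SE 0.375, unadjusted p = 0.00238, adjusted p = 0.686), all from limma. Two-sided exact permutation tests of Aldoc alone gave p = 0.0256 for anti-PD1 + HMB, 0.00433 for anti-PD1 and 0.0035 for HMB against control, unadjusted for the other genes. Group accounted for 42.8% of the variance of Aldoc, more than for 99.1% of all genes, and the adjusted F p was 0.469. Its difference between both treatments together and the sum of the single ones, the interaction, was 1.499 (SE 0.531, adjusted p = 0.862, limma).

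**Figure D3:**
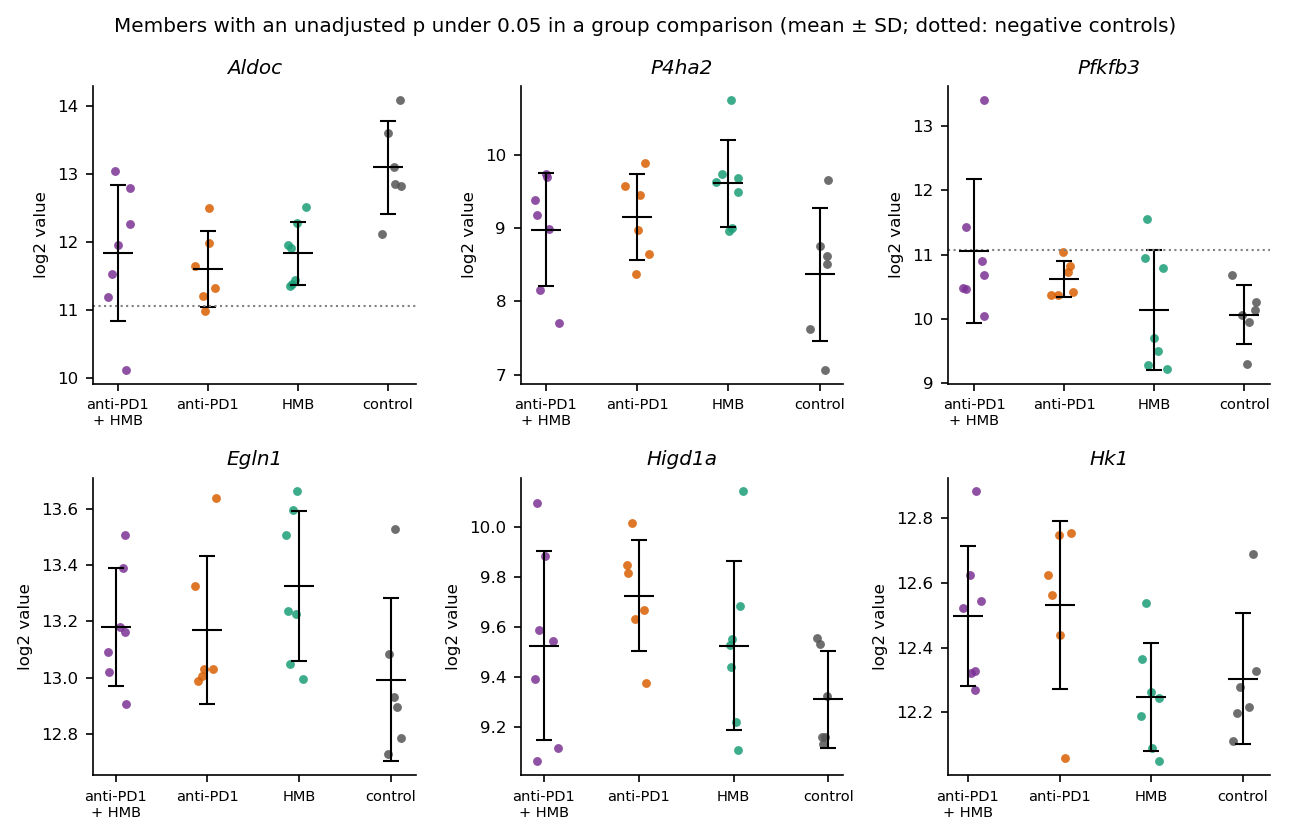
Log2 values of 6 members with an unadjusted limma p under 0.05 in at least 1 comparison, 1 point per tumor, with bars for the mean and SD of each group and a dotted line for background where it falls in the panel. Aldoc is highest on average in control tumors (mean 13.1), and the lone high Pfkfb3 value of 13.4 belongs to anti-PD1 + HMB tumor 7.

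The other enzymes of lower glycolysis showed small differences with narrow intervals where the signal was high. Aldoa, the main aldolase of growing cells, Tpi1, Gapdh, Pgk1, Pgam1 and Pkm, which encode the enzymes from the triose stage to pyruvate, were above background in all tumors. Gapdh averaged 17.1 ± 0.126 in anti-PD1 + HMB, 17.0 ± 0.231 in anti-PD1, 17.0 ± 0.116 in HMB and 17.0 ± 0.143 in control tumors (log2, SD, n = 7, 6, 7 and 6). Its log2 difference from control was 0.07 for anti-PD1 + HMB (95% interval -0.16 to 0.29), 0.01 for anti-PD1 (-0.23 to 0.24) and -0.04 for HMB (-0.27 to 0.18), so that a change beyond 0.3 lay outside all 3 intervals. Tpi1 differed from control by -0.02 in anti-PD1 + HMB, 0.12 in anti-PD1 and 0.01 in HMB tumors, and Pkm by -0.09 in anti-PD1 + HMB, 0.11 in anti-PD1 and 0.03 in HMB tumors. Pgk1, the first enzyme of the pathway to yield ATP, differed by 0.21 in anti-PD1 + HMB, 0.40 in anti-PD1 and 0.15 in HMB tumors, with intervals that all included 0.

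Of the lactate genes, Ldha, which encodes the subunit of lactate dehydrogenase that favors lactate formation, had lowest, median and highest log2 values of 15.85, 16.38 and 16.80 in anti-PD1 + HMB tumors, 16.19, 16.40 and 16.82 in anti-PD1 tumors, 15.98, 16.48 and 16.71 in HMB tumors, and 16.13, 16.32 and 16.72 in control tumors. The groups overlapped almost fully, and the differences from control were -0.02 for anti-PD1 + HMB, 0.12 for anti-PD1 and 0.09 for HMB, with intervals inside -0.34 to 0.45. Slc16a1, the lactate carrier MCT1, had a log2 difference of -0.45 between anti-PD1 + HMB and control (SE 0.276, adjusted p = 0.669, limma). Ldhb and the exporter gene Slc16a3 were below background in every tumor.

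The HIF subunits and oxygen sensors did not pass in any comparison. Hif1a averaged 14.2 ± 0.258 in anti-PD1 + HMB, 14.2 ± 0.317 in anti-PD1, 14.3 ± 0.217 in HMB and 14.2 ± 0.291 in control tumors (log2, SD, n = 7, 6, 7 and 6), and its 3 differences from control lay between 0.06 and 0.09 with intervals inside -0.27 to 0.42. Epas1, the HIF subunit of endothelial and some other cells, was above background in 7 of 26 tumors, reached 13.15 in anti-PD1 + HMB tumor 7 and was otherwise at most 11.93. Egln1, the main oxygen-sensing prolyl hydroxylase, had lowest, median and highest log2 values of 13.00, 13.24 and 13.66 in HMB tumors, against 12.73, 12.91 and 13.53 in control tumors. All 7 HMB tumors lay above the control mean, the groups overlapped, and the log2 difference was 0.33 (SE 0.151, unadjusted p = 0.0373, adjusted p = 0.707, limma; exact permutation p = 0.0559, two-sided). Vhl, which encodes the recognition subunit of the ligase that removes HIF, was below background throughout and differed by -0.19 between HMB and control (adjusted p = 0.798), and by -0.11 without control tumor 3.

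Of the 12 hypoxia targets, P4ha2 and Higd1a reached an unadjusted p under 0.05 against control, and both were below background in all 26 tumors. P4ha2 encodes a subunit of the enzyme that hydroxylates collagen prolines. Its log2 values ran from a lowest of 8.96 through a median of 9.63 to a highest of 10.76 in HMB tumors, against 7.06, 8.57 and 9.65 in control tumors. All 7 HMB tumors lay above the control mean and the groups overlapped, with a log2 difference of 1.24 (SE 0.381, unadjusted p = 0.00319, adjusted p = 0.686, limma; exact permutation p = 0.00932, two-sided). The difference was 0.98 without control tumor 5, the lowest. Against control, P4ha2 differed by 0.61 in anti-PD1 + HMB tumors and by 0.78 in anti-PD1 tumors, and by 0.35 and 0.52 without control tumor 5. Higd1a, a mitochondrial protein induced by low oxygen, had log2 values of 9.37, 9.74 and 10.02 at lowest, median and highest in anti-PD1 tumors, against 9.13, 9.24 and 9.56 in control tumors. The difference was 0.42 (SE 0.178, unadjusted p = 0.0275, adjusted p = 0.785, limma), with all 6 anti-PD1 tumors above the control mean.

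Car9, Vegfa and Bnip3, classical targets of HIF, did not separate the groups. Car9, a carbonic anhydrase at the cell surface that acidifies the surroundings and is a common marker of hypoxic tumor areas, had lowest, median and highest log2 values of 8.64, 10.05 and 11.07 in anti-PD1 + HMB tumors, 10.08, 10.45 and 12.55 in anti-PD1 tumors, 9.69, 10.12 and 11.66 in HMB tumors, and 8.52, 10.19 and 12.74 in control tumors. The control group held both the highest and the lowest Car9 value, and the difference from control was -0.36 for anti-PD1 + HMB (95% interval -1.59 to 0.87), 0.61 for anti-PD1 (-0.67 to 1.89) and 0.24 for HMB (-0.99 to 1.47). Vegfa, the growth factor of vessels, differed from control by 0.18 in anti-PD1 + HMB, 0.34 in anti-PD1 and -0.01 in HMB tumors, and Bnip3, a receptor that targets mitochondria for removal, by 0.37 in anti-PD1 + HMB, 0.55 in anti-PD1 and 0.39 in HMB tumors, each with an interval that included 0.

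Adding HMB to anti-PD1 gave no member at an unadjusted p under 0.05 (0 of 37 higher and 0 lower, against 1.85% and 2.33% of all genes). The difference was above 0 for 14 of 37 members (48% of all genes), and 0 members had groups without overlap (0.0513% of all genes). The lowest p belonged to Pkm, which encodes pyruvate kinase, with a log2 difference of -0.20 between anti-PD1 + HMB and anti-PD1 (SE 0.123, adjusted p = 0.999, limma). Car9 followed with -0.97 (SE 0.598), which was -0.65 without anti-PD1 tumor 5, and Adm, the vasodilator adrenomedullin, with 0.61 (SE 0.377), both at an adjusted p of 0.999. Ldhb differed by 0.54, and by 0.31 without anti-PD1 + HMB tumor 7. Adding anti-PD1 to HMB gave 1 member higher and 0 lower (4.71% and 4.1% of all genes), with 16 differences above 0 (48.4%) and 0 groups without overlap (0.0718%). The member was Pfkfb3 with a log2 difference of 0.92 (SE 0.404, unadjusted p = 0.032, adjusted p = 0.512, limma) and 0.53 without anti-PD1 + HMB tumor 7. Hk1 differed by 0.25 in that comparison (SE 0.127, adjusted p = 0.584, limma), with all 7 anti-PD1 + HMB tumors above the HMB mean. The 14 HMB-fed tumors, set against the 12 others, gave 0 members higher and 0 lower (2.19% and 2.84% of all genes), with 19 differences above 0 (46.7%). The interaction gave 1 higher, Aldoc, and 1 lower, P4ha2 (2.61% and 2.96%), with 19 above 0 (50.7%).

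Most of the variance of the members lay between tumors of the same group, as it did for genes in general. Over the 26 tumors the SD was 1.14 for Car9, 1.12 for Egln3, 0.89 for Ddit4, an inhibitor of mTOR signaling, and 0.88 for Epas1, against a median SD of 0.383 over all genes, and it was 0.153 for Gapdh and 0.195 for Pkm. The SD of 24 of 37 members exceeded that median. Group accounted for under 10% of the variance of 22 of 37 members (59.5%), against 43.3% of all genes, and its median share was 7.42% over the members and 11.5% over all genes. The share was 2.69% for Slc2a1 and 9.96% for Car9, and highest for Aldoc at 42.8%.

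Across tumors of all groups, a set of glycolysis and hypoxia genes was high in the same tumors. The 7 tumors with the highest Car9 were control tumors 3 and 4, anti-PD1 tumors 2 and 5 and HMB tumors 2, 3 and 5, and in each of them Pgk1, Tpi1, Slc2a1, Ankrd37 and Pfkl were all 5 above their means. In the 3 tumors with the lowest Car9, control tumors 5 and 6 and anti-PD1 + HMB tumor 4, 0 of these 5 were above their means. The 5 genes are those that correlated best with Car9 and were picked for it. The cuts at 7 and 3 tumors fall where the unbroken runs of 5 and of 0 end, so these counts only describe these tumors and genes. Between the cuts, control tumor 1, anti-PD1 tumors 4 and 6, anti-PD1 + HMB tumor 6 and HMB tumors 4 and 7 also had 0. No anti-PD1 + HMB tumor is among the 7, but anti-PD1 + HMB tumor 3, at rank 9, also had all 5 genes above their means. Anti-PD1 + HMB tumor 2, next below the 7, had 3 of the 5. Anti-PD1 + HMB tumor 1, next above the 3 lowest, had 1, and anti-PD1 + HMB tumor 7, at rank 21, had 3. Across tumors, with deviations taken from group means, 16 of the 36 other members (44.4%) had a Pearson r above 0.5 with Car9, against 354 of 19504 other genes (1.82%). The choice of Car9 as the gene to compare with was made after seeing the data.

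Car9 itself was above background in 8 of 26 tumors (1 anti-PD1 + HMB, 2 anti-PD1, 3 HMB and 2 control tumors), so its lower values are read as low signals. Its lowest value, 8.52, was still above the median of the negative controls, which was at most 7.26. Ranked by that within-group r among 19504 genes, Pgk1 stood at 2 (r = 0.81), Tpi1 at 3 (0.79), Slc2a1 at 4 (0.79), Ankrd37 at 6 (0.75) and Pfkl at 7 (0.75), and the first 50 genes held 11 members. Ankrd37, an ankyrin repeat gene known as a HIF target, was below background in every tumor and still followed Car9. Ndrg1, a stress-induced growth regulator, stood at 14 (0.70), Ldha at 16 (0.69), Aldoa at 23 (0.68), Pfkp at 24 (0.68) and Bnip3 at 42 (0.66). In the family of 36 correlations with Car9, 16 passed an adjusted permutation p of 0.05 by Pearson's r, by Spearman's rho and within groups, all 16 positive, and 18 passed in at least 1 of these ways. The 16 that passed in all 3 ways are not the same 16 as those with a within-group r above 0.5. Vegfa (0.49) passed in all 3 ways, and Slc16a3 (0.50) passed only within groups. The pooled r of the 16 that passed in all 3 ways lay between 0.47 and 0.78. It lay between 0.43 and 0.72 once the 2 tumors farthest from the median Car9 were left out. The members that did not pass with Car9 in any of these ways included Hif1a (within-group r = -0.11), Epas1 (-0.21), Aldoc (0.05), Pfkfb3 (-0.002) and Slc2a3 (-0.07). Car12, another surface carbonic anhydrase, which was below background throughout, had the lowest within-group r at -0.40 (permutation p = 0.0307, adjusted p = 0.0605) and missed the threshold.

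**Figure D4:**
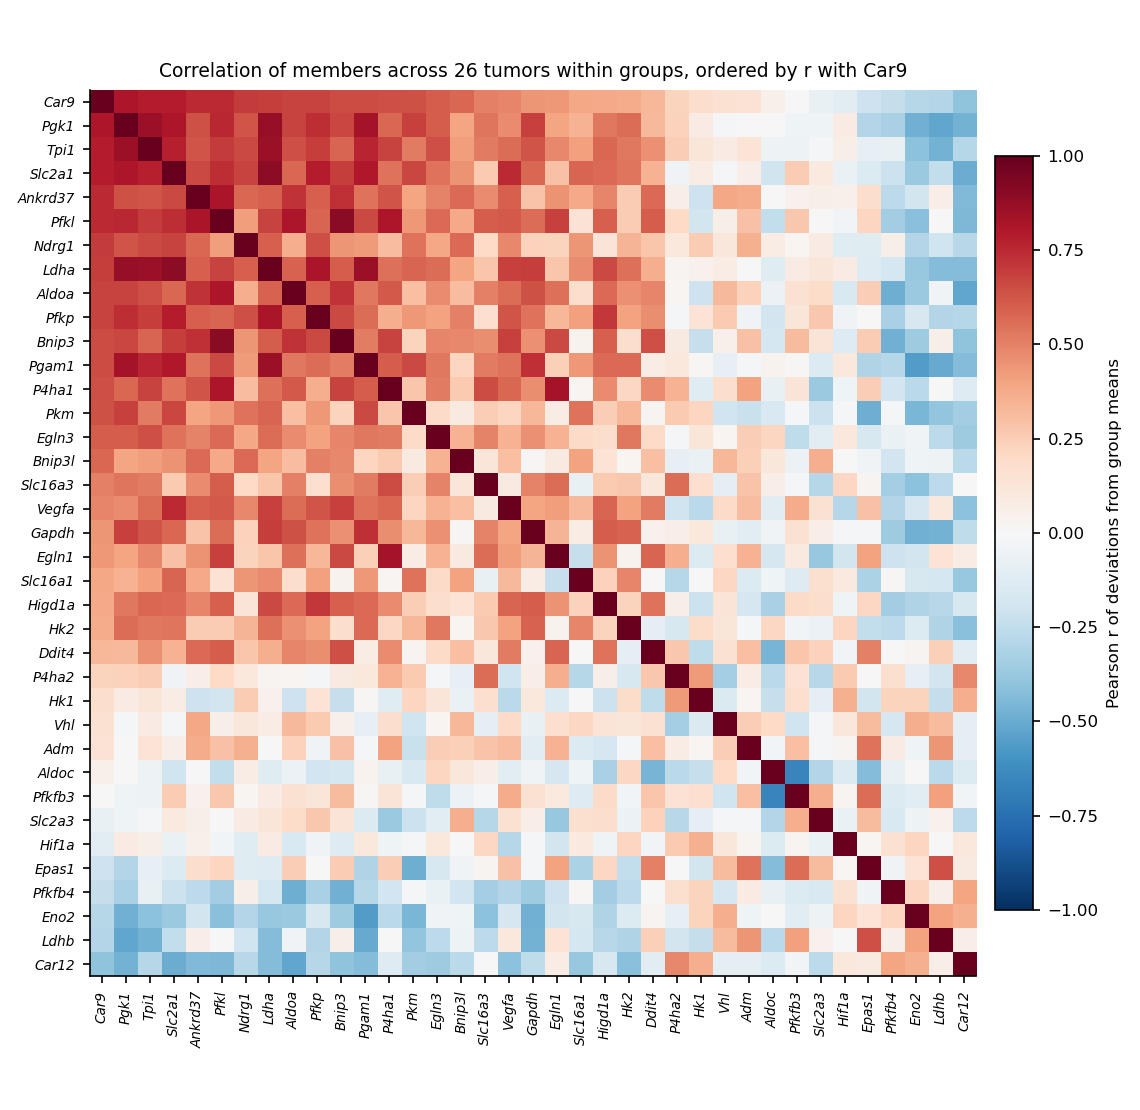
Pearson r between members over 26 tumors, from deviations from group means, with rows and columns ordered by r with Car9. A block of positive r runs from Car9 to Bnip3l at the upper left, where Slc2a1 and Ldha reach 0.90, and Hif1a, Epas1, Aldoc and Pfkfb3 lie outside it.

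Of the 666 pairs of members, 152 (22.8%) had a within-group r above 0.5, against 2.09% of all pairs of genes, and 5 were below -0.5. The highest r was 0.90 for Bnip3 and Pfkl, and the lowest -0.66 for Aldoc and Pfkfb3. Among the hypoxia targets 20 of 66 pairs (30.3%) and in lower glycolysis 13 of 28 pairs (46.4%) were above 0.5, and in upper glycolysis 1 of 15 (6.67%).

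In a family of 15 pairs listed for their roles, 5 passed an adjusted permutation p of 0.05 by r, by rho and within groups (two-sided, 100000 permutations, where 1e-05 is the smallest p they can give). Slc2a1 and Ldha, uptake of glucose and the making of lactate, had r = 0.85 and rho = 0.82 (p = 1e-05 each, adjusted p = 7.5e-05 and 5e-05), a within-group r of 0.90, and r = 0.83 without the 2 tumors farthest from the median Slc2a1. Within the single groups r was 0.92 in anti-PD1 + HMB, 0.88 in anti-PD1, 0.83 in HMB and 0.98 in control tumors. Ldha and Pgk1 had r = 0.85 and rho = 0.87 (p = 1e-05 each, adjusted p = 7.5e-05 and 5e-05), with 0.83 in anti-PD1 + HMB, 0.95 in anti-PD1, 0.92 in HMB and 0.93 in control tumors. Slc2a1 and Car9 had r = 0.75 and rho = 0.82 (p = 2e-05 and 1e-05, adjusted p = 0.0001 and 5e-05), with 0.60 in anti-PD1 + HMB, 0.96 in anti-PD1, 0.83 in HMB and 0.95 in control tumors.

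Bnip3 and Ankrd37 had r = 0.70 and rho = 0.68 (permutation p = 4e-05 and 0.00019, adjusted p = 0.00015 and 0.000713), and Egln3, an oxygen sensor that is itself induced by HIF, and Car9 had r = 0.52 and rho = 0.51 (p = 0.00642 and 0.00778, adjusted p = 0.0193 and 0.0233). All 5 kept an r between 0.51 and 0.88 without the 2 tumors farthest from the median of the first gene. Hif1a and Epas1 (r = 0.03, rho = 0.03, permutation p = 0.88 and 0.885, adjusted p = 0.88 and 0.885) and Hif1a and Vegfa (r = -0.27, rho = -0.28, p = 0.178 and 0.163, adjusted p = 0.222 each) did not pass.

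**Figure D5:**
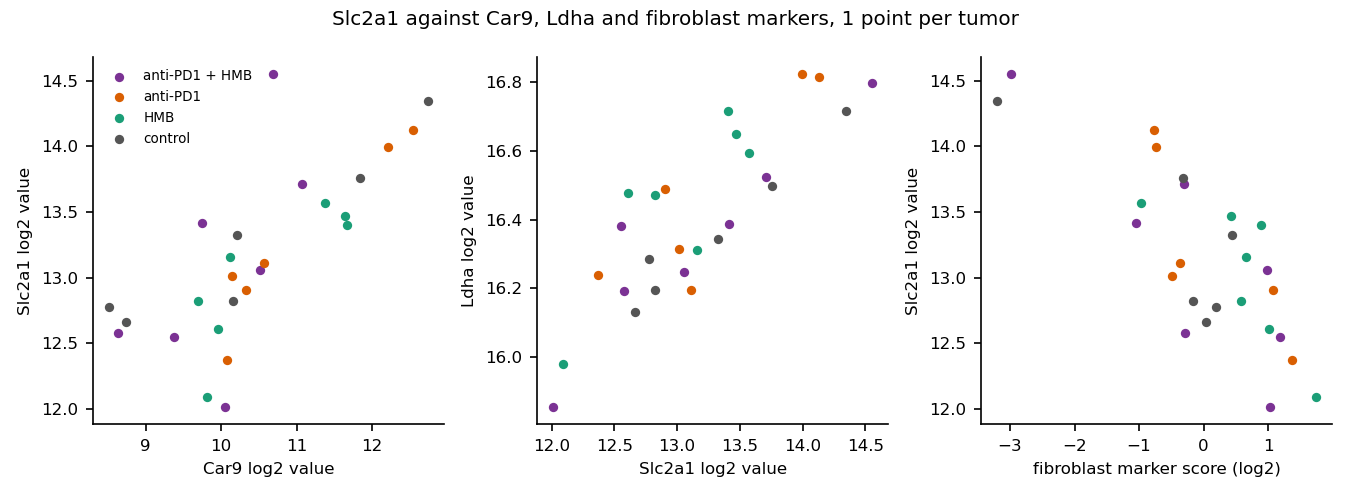
Log2 values of Slc2a1 against Car9 (left), of Ldha against Slc2a1 (middle) and of Slc2a1 against the fibroblast marker score (right), 1 point per tumor, colored by group. Tumors of all 4 groups lie along each trend (r = 0.75, 0.85 and -0.80), and the 2 tumors with the lowest fibroblast score, near -3, have the highest Slc2a1.

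The bases before the start sites of the members were searched for the core of the motif that HIF binds, ACGTG or GCGTG on either strand. CACGTG was counted once and overlapping matches separately. Windows of 250 bases upstream of the most upstream start listed came from RefSeq (mouse build GRCm38.p6) and existed for 33 of 37 members, not for Slc2a3, Bnip3l, Epas1 and Ndrg1. At least 1 match lay in 25 of 33 windows (75.8%), against 45.5% of 15691 genes on the array with a window and 38.6% of all 27025 genes, and ACGTG was in 51.5%, against 18.2% and 16.5%. Of Car9 and the members with a within-group r above 0.5 with it, 12 of 15 (80%) had a match, and of the other members 13 of 18 (72.2%). ACGTG alone was in 10 of these 15 (66.7%) and in 7 of the 18 others (38.9%), and neither split was tested. The list of members was written to hold HIF targets and glycolysis genes, so a higher share of matches than in all genes can come from that choice. Why members moved together was not tested. The windows were not matched for base composition, and a match is a run of letters and not a measured binding site. The windows of Car9, Ldha, Pgk1 and Ankrd37 are shown with matches in capitals as members that moved together, that of Tpi1 as one that moved with them and holds no match, and that of Aldoc as one that did not move with them. They are read 5′ to 3′ on the gene's strand and end 1 base before the start, at chr4:43506776-43507025 (plus strand) for Car9, chr7:46845554-46845803 (plus) for Ldha, chrX:106186850-106187099 (plus) for Pgk1, chr8:45999851-46000100 (minus) for Ankrd37, chr6:124814159-124814408 (minus) for Tpi1 and chr11:78322823-78323072 (plus) for Aldoc.
Car9: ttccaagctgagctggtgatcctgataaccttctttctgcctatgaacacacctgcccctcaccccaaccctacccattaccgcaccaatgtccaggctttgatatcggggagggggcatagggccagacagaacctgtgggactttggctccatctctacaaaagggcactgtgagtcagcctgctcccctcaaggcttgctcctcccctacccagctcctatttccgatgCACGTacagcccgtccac
Ldha: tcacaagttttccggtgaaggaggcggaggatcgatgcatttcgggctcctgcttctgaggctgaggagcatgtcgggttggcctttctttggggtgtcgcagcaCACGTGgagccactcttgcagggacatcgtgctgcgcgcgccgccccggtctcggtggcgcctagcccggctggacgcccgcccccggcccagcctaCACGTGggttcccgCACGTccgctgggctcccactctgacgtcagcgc
Pgk1: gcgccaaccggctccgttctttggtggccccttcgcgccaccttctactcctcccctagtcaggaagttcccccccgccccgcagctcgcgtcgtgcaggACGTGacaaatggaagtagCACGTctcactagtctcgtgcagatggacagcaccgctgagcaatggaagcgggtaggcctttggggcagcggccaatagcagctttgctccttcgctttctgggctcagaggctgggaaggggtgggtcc
Ankrd37: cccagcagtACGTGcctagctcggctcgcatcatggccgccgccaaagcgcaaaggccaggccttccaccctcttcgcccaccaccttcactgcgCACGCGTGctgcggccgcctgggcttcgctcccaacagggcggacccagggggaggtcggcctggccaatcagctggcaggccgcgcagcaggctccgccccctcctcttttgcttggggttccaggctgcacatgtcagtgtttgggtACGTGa
Tpi1: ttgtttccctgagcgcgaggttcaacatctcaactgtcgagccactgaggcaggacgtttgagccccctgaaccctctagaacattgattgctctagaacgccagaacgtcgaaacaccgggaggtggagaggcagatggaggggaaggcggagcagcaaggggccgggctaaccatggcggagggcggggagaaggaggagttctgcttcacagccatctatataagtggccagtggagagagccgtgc
Aldoc: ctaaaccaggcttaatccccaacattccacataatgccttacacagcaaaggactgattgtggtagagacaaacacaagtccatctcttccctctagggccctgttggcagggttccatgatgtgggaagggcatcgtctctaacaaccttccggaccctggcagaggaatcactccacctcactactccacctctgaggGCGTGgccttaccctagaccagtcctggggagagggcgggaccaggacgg

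In these windows the C of the central CG lay at position -16 from the start in Car9, at -143, -46 and -32 in Ldha, at -149 and -129 in Pgk1, at -240, -153, -151 and -5 in Ankrd37 and at -49 in Aldoc. Ldha held 3 matches with ACGTG and Pgk1 2. Hif1a held 2 as well, at -133 and -69, and Vegfa and Pkm had no match of either kind in the window searched. Vegfa, Pkm, Ldha and Aldoc each have 2 windows listed, and only that of the most upstream start was searched.

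Other genes of the 2 pathways, taken from lists written with the earlier results known, also had no call between groups. Of 25 other glycolysis and gluconeogenesis genes and 37 other hypoxia genes measured, 0 passed an adjusted p of 0.05 in any comparison. At an unadjusted p under 0.05 the anti-PD1 + HMB tumors had 3 of these 62 genes higher and 1 lower than control (3.42% and 4.71% of all genes), the anti-PD1 tumors 1 and 1 (2.41% and 3.59%), and the HMB tumors 2 and 3 (3.14% and 3.79%). The lowest p belonged to Ppfia4, a liprin gene used in hypoxia signatures, which was below background and had a log2 difference of -1.18 between HMB and control (SE 0.282, unadjusted p = 0.000298, adjusted p = 0.463, limma). Its lowest, median and highest log2 values were 6.17, 7.00 and 7.21 in HMB tumors, against 7.36, 8.07 and 8.74 in control tumors, and the groups did not overlap, as for 0.179% of all genes. Hmox1, the heme-degrading stress enzyme heme oxygenase, differed by 1.47 between anti-PD1 + HMB and control (SE 0.502, adjusted p = 0.535), with 12.12, 13.17 and 16.03 in anti-PD1 + HMB tumors, against 11.05, 11.68 and 12.74 in control tumors, which overlapped. Hk3, the hexokinase of myeloid cells, differed by -1.51 between HMB and control (SE 0.496, adjusted p = 0.686) and by 1.44 between anti-PD1 + HMB and HMB (SE 0.477, adjusted p = 0.318). The relation to Car9 was less common in these lists than the 44.4% among the members, though this difference was not tested. Of the other glycolysis genes, 2 of 25 (8%) had a within-group r above 0.5 with Car9 (median r = 0.06, against 0.44 over the members). Of the other hypoxia genes, 7 of 37 (18.9%) had a within-group r above 0.5 with Car9, led by Fam162a (0.75, rank 5 of all genes), a mitochondrial protein induced by HIF, Mxi1 (0.71, rank 13), a MYC antagonist, Kdm3a (0.67, rank 29), a histone demethylase, and Gys1 (0.66, rank 33), the glycogen synthase of muscle and most other tissues. Ero1a, the oxidase of the endoplasmic reticulum listed among the 40 as Ero1l, had 0.55. Lox, a collagen crosslinking enzyme that is also a HIF target, had -0.57.

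Each of the 37 members was set against 13 marker scores and 3 array measures, which makes 592 relations. Of these, 13 passed an adjusted permutation p of 0.05 by r, 3 by rho and 6 within groups, and 3 passed in all of these ways. Slc2a1 was lower where the fibroblast score was higher (r = -0.80, permutation p = 1e-05, adjusted p = 0.00592; rho = -0.76, p = 2e-05, adjusted p = 0.00592; within-group r = -0.81), and r was -0.68 without the 2 tumors farthest from the median score. Vegfa showed the same (r = -0.69, permutation p = 6e-05, adjusted p = 0.00691; rho = -0.76, p = 1e-05, adjusted p = 0.00592; -0.71 without those tumors). Pkm followed the tissue handling score of immediate early and heat shock genes (r = 0.70, permutation p = 7e-05, adjusted p = 0.00691; rho = 0.70, p = 0.0001, adjusted p = 0.0197; 0.67 without the 2 farthest). Car9 and the fibroblast score had r = -0.43 and rho = -0.45 (permutation p = 0.028 and 0.0217, adjusted p = 0.252 and 0.306), which did not pass. Of the 11 fibroblast markers measured, 7 had a group mean above background in each group, and Col1a1 was above background in 24 of 26 tumors.

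The skeletal muscle score, with r between -0.30 and 0.34, passed with 0 of 37 members, and the 3 array measures (array median, negative-control percentile and positive-control median) also passed with 0. The part of fibroblasts and of tissue handling in the values of Slc2a1, Vegfa and Pkm was not tested.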

How the data were processed

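The authors extracted RNA from homogenized tumors with TRIzol and RNeasy, labeled it with the GeneChip WT PLUS kit and hybridized it to Clariom S arrays. The deposited table holds values on a log scale, read here as log2, from 1.08 to 19.3. The sources used here do not give how they were made from the scans, and they were used unchanged. The platform annotation gave 1 symbol to 19572 of 28846 probe sets. The 9274 others were dropped, and where a gene had more than 1 probe set (55 genes) only the brightest on average entered, so that 19505 genes were tested with no filter on low values.

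Groups followed the sample titles. A limma 3.58.1 model (R 4.3.3) fitted the 4 group means over 26 tumors, and p-values were adjusted by Benjamini-Hochberg over all genes. Correlations were computed in Python 3.11.15 with numpy 2.4.6 and 100000 permutations, drawn within groups for the within-group r, and exact permutation tests of single genes with scipy 1.17.1. Scripts were tested on simulated data. Alternatives were quantile normalization, dropping the dimmest genes, a trended and robust variance prior, weights per array, 2-group fits, averaging probe sets of a gene, the methods' t-test, the replicate number as a block, marker scores as covariates, and leaving out tumors. Leaving out the tumors highest in B cell genes was chosen after seeing the data. The members and all lists were chosen with earlier results of these data known. Of the 4 members with the smallest unadjusted p of each comparison, only some are given in full, and other members are described beside them. Genes of the other lists are named from the 3 with the smallest unadjusted p of each comparison. The genes described beside Car9 were chosen after their values were seen.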

Additional observations from a re-analysis of the deposited data

Results flagged for a closer look

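Each member was examined in each group for a lone highest or lowest tumor by Dixon's test at the 95% level, which makes 148 groups of tumors, and chance flags about 1 in 20 of such groups. There were 2 such values. Pfkfb3 in anti-PD1 + HMB tumor 7 had a log2 value of 13.4082, against 10.05 to 11.42 in the other tumors of that group. The same tumor had the highest B cell score (7.81), T cell score (3.74) and adipocyte score (6.07) and the lowest proliferation score (-1.59) of all 26 tumors, and their part in the Pfkfb3 value was not tested. Hk1 in control tumor 4 had a log2 value of 12.6905, against 12.11 to 12.33 in the other control tumors. This tumor also had the highest Car9 value (12.74) and the lowest fibroblast score (-3.20) of all 26.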

How the results depend on the processing

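The count of members past the adjusted threshold was 0 under every alternative in all 8 comparisons, the methods' t-test after Benjamini-Hochberg adjustment included, and the lowest adjusted p of a member named above was 0.105 (Pfkfb3, anti-PD1-treated against other tumors, with muscle, adipocyte and fibroblast scores as covariates). No named member changed direction in 1192 values under other settings. The spread between tumors, as the SD of the median of the members per tumor within groups, was 0.24, which is larger than the medians against control. The median log2 difference of the members moved by more than that only for the interaction. It was -0.26 with those 3 scores as covariates, against 0.00 without, and the cause was not tested. Counts at an unadjusted p under 0.05 moved by over 1.5 times in 85 cases and stayed within that in 511. At that threshold the methods' t-test against control had 0 members higher and 1 lower in anti-PD1 + HMB tumors, 2 and 1 in anti-PD1 tumors, and 1 and 1 in HMB tumors, and array weights gave 3 higher for anti-PD1 against control in place of 1. Without single tumors, the median difference ran from 0.00 to 0.11 for anti-PD1 + HMB minus control, from -0.01 to 0.16 for anti-PD1 minus control and from -0.03 to 0.14 for HMB minus control. Under the other settings these ranges were 0.00 to 0.17, 0.04 to 0.11 and -0.02 to 0.18. For anti-PD1 + HMB minus HMB the median ran from -0.16 to 0.12 there and so changed sign. Same-numbered tumors of 2 groups had correlations between -0.24 and 0.32, not above 0.1 for every pair. Their mean per pair of groups lay between -0.05 and 0.07, and that of tumors with other numbers between -0.01 and 0.01. The numbers were therefore not used as a pairing in the main fit, though these values cannot exclude a weak one. With the replicate number as a block, the count of members past the adjusted threshold was 0 in all 8 comparisons, the count at an unadjusted p was 0 in place of 1 higher in anti-PD1 + HMB tumors against control, 1 in place of 2 in HMB tumors against control and 2 in place of 1 in anti-PD1 + HMB tumors against HMB tumors, and the medians were 0.04, 0.06 and 0.04 for anti-PD1 + HMB, anti-PD1 and HMB against control. The number of arrays and the position of 13 members below the negative-control percentile limit what differences could be seen.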
